A study of Homo sapiens with 12 samples.

Results

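The 10 genes described here make, break down and regulate the polyamines putrescine, spermidine and spermine. They are 10 of the 58037 rows of the count table, found by their symbols: ODC1, AMD1, SRM, SMS, OAZ1, OAZ2, AZIN1, SAT1, PAOX and SMOX. The set was chosen by its DOX and vehicle values in these same 12 samples, so their differences between DOX and vehicle are given as a description, and nothing is read from the number of them past a threshold. RNA-seq was performed on 2 prostate cancer cell lines, each carrying a doxycycline (DOX)-inducible short hairpin RNA against MUC1, to examine what silencing this mucin does to gene expression. LNCaP-AI/tet-MUC1shRNA cells descend from androgen-dependent LNCaP cells through C4-2B and grow without androgen. DU-145/tet-MUC1shRNA cells are androgen-independent prostate cancer cells. Each line was treated for 7 days with 500 ng/ml DOX or with 0.1% DMSO as the vehicle, and 3 cultures were sequenced per group.

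All 4 groups carried the same inducible vector, and the study's methods name puromycin selection of the transduced cells. The sources differ on the serum: the sample labels name charcoal-stripped serum and no phenol red for both lines, whereas the study's methods name these for LNCaP-AI and heat-inactivated serum for DU-145. The sample labels call the vehicle groups shCTL and the DOX groups shMUC1, while the design text gives both groups the same vector and names vehicle or doxycycline as the treatment. No control-hairpin cells given DOX enter the comparisons, and what DOX alone does cannot be told apart from what the MUC1 hairpin does. MUC1 itself had 74, 60 and 59 counts in the vehicle DU-145 samples and 3 in each DOX sample. In LNCaP-AI cells it had 36, 25 and 52 counts with vehicle and 8, 6 and 3 with DOX, so the groups did not overlap in either line.

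Ornithine decarboxylase, encoded by ODC1, makes putrescine from ornithine, and AMD1, the S-adenosylmethionine decarboxylase, supplies the aminopropyl groups that SRM adds to make spermidine and SMS adds to make spermine. Antizymes, encoded by OAZ1 and OAZ2, bind ornithine decarboxylase and send it to the proteasome, and AZIN1, a decarboxylase look-alike without activity, ties up the antizymes. SAT1 acetylates spermidine and spermine, PAOX oxidises the acetylated forms, and SMOX oxidises spermine directly. The secretory epithelium of the prostate is known for making and exporting large amounts of spermine.

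The sequence behind the antizyme switch is shown because both OAZ1 and OAZ2 enter the results below, and because their protein depends on it. Polyamines make ribosomes skip a base at this place, and only then is full-length antizyme made, so the mRNA level is not the antizyme level. Both stretches are coding exon sequence of the forward reading strand of the gene on GRCh38, at chr19:2271413-2271473 (forward strand) for OAZ1 and chr15:64691485-64691545 (reverse strand) for OAZ2. Capitals mark the codon before the shift and the TGA stop that is read when no base is skipped.
OAZ1: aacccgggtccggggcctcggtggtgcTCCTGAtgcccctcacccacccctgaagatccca
OAZ2: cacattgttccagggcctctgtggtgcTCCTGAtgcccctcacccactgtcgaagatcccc
The capitals were identical in the 2 genes, and 49 of the 61 bases matched. The skipped base, the first of the TGA, lies at 2271443 on chromosome 19 and at 64691515 on chromosome 15.

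The next stretches are shown because ODC1 and SAT1 had the largest log2 differences between DOX and vehicle in DU-145 cells among the 10 genes, and because SRM shares a motif with ODC1. They come from RefSeq start-site windows on GRCh38.p14, which run from 250 bases before to 50 bases after a start, and 10 windows matched 7 of the 10 genes. Capitals mark the E-box CACGTG, the motif bound by MYC with MAX, in ODC1 (chr2:10448015-10448114, reverse strand) and SRM (chr1:11060169-11060268, reverse strand), and the CCAAT box, also read as ATTGG on the other strand, in SAT1 (chrX:23783053-23783172, forward strand).
ODC1: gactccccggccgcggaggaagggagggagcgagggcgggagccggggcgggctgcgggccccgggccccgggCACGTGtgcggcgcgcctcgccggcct
SRM: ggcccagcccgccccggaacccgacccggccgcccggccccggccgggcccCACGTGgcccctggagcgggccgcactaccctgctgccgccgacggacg
SAT1: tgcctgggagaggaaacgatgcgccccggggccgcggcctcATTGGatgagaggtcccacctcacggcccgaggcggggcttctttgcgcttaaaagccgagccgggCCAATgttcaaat
The ODC1 stretch lies before the more downstream of 2 RefSeq starts, in the first intron of the longer transcripts. That window held 2 E-boxes, of which 1 is shown, the SRM window held 1, and the other 8 windows held none. Of all 35116 windows, 7.26% held CACGTG on either strand. CCAAT stood in 34.61% of all windows and in the windows of OAZ1, SRM, SMS, SAT1 and 1 of 3 for AMD1. The AP-1 motif TGANTCA stood in 7.71% of all windows and, among the 10, in that of OAZ2, while GGGCGG stood in 44.95% of all windows and in every one of the 10 except that of SAT1. These are matches of letters and not shown to be sites.

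Total counts per sample ran from 10423437 to 13544153 in DU-145 and from 16569613 to 26961777 in LNCaP-AI. All 6 luminal markers tested, KLK3 and HOXB13 among them, were above 10 CPM, that is counts relative to library size, in every LNCaP-AI sample, and in DU-145 only SLC45A3 was above 3 counts. Of the 6 LNCaP-AI samples, 3 stood apart: vehicle 2, vehicle 3 and DOX 1 had all 5 markers of the DU-145 list (CD44, VIM, CAV1, ITGA3 and TGFBI) above 10 CPM, with sums of 342, 370 and 343 CPM. In vehicle 1, DOX 2 and DOX 3 the sums were 49.9, 76.0 and 72.5 CPM, nearly all of it VIM and ITGA3, and CD44, CAV1 and TGFBI were at 0.28 CPM or below. VIM and ITGA3 were thus above 10 CPM in all 6 samples. VIM did not follow the split, at 27.4 to 31.9 CPM with vehicle and 53.6 to 57.3 CPM with DOX. DU-145 samples had sums of 2438 to 2978 CPM. Fibroblast and leukocyte markers summed to at most 29.4 and 1.53 CPM in any sample. The first principal component of the LNCaP-AI samples held 82.2% of their variance and divided them in the same way, across treatment. What these 3 samples hold was not tested, and the DOX differences of the named genes in LNCaP-AI are therefore also given within each side of this split. Levels per length cover all 3 samples of a group.

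Levels are CPM after TMM scaling over the 12 samples, and p-values measure only the spread between these samples, which may be partly technical. In bulk RNA, fewer cells of a kind and less RNA per cell cannot be told apart. All 10 genes passed the filter of at least 10 counts in at least 3 samples in every comparison. In DU-145 cells the DOX and vehicle samples did not overlap for any of the 10 genes, 6 higher and 4 lower with DOX. Non-overlap was common in this line, since 56.5% of the 13644 genes tested also separated. By edgeR, 51.5% of all genes passed an adjusted p of 0.05, 26.3% of those tested being higher and 25.3% lower with DOX, and all 10 genes were among those passing. Nothing is read from that count, because the genes were chosen by these values. The median log2 difference was 0.25 over the 10 genes and 0.00 over all genes tested, and the medians of the absolute differences were 0.47 and 0.30.

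**Figure D1:**
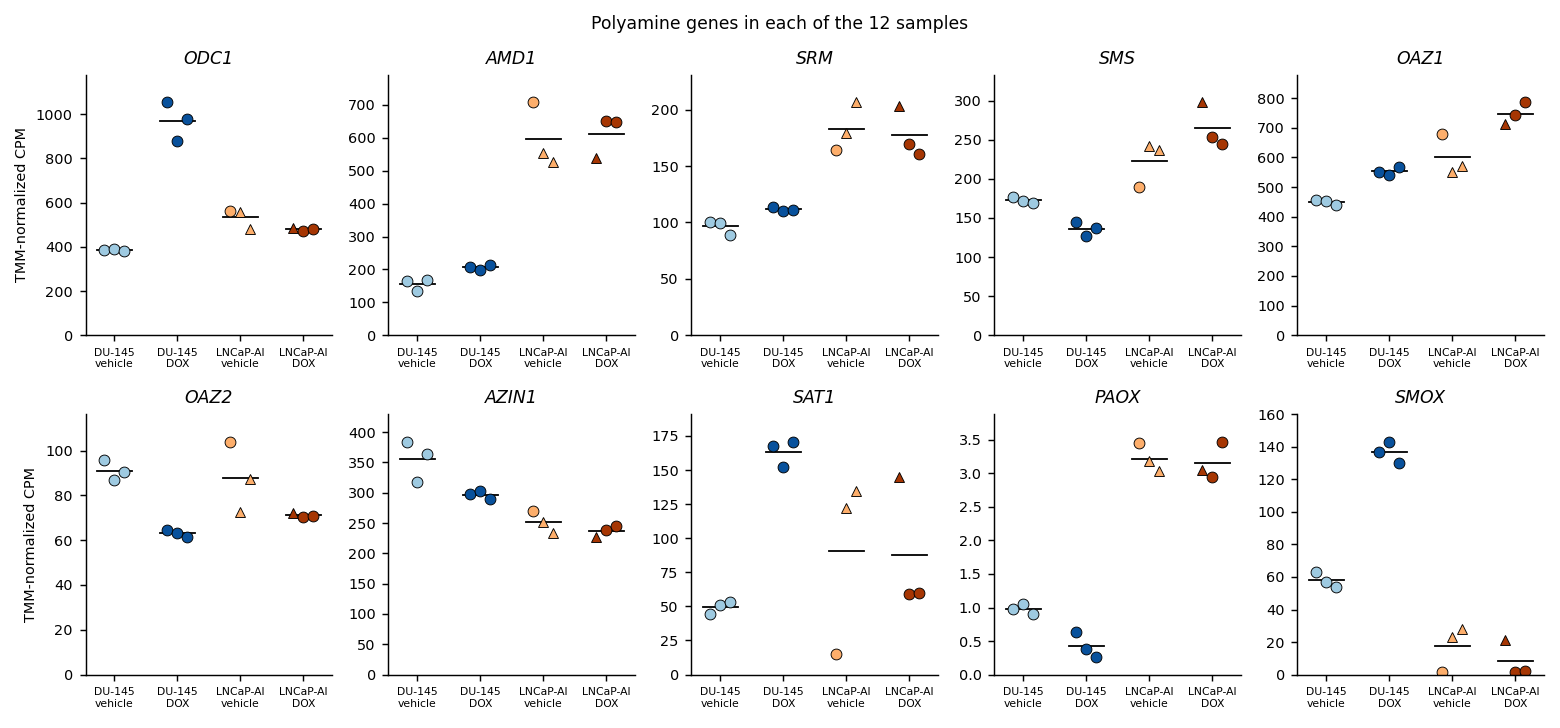
TMM-normalized CPM of each polyamine gene in each of the 12 samples, with a panel per gene, a point per culture and a bar at the group mean. Triangles are LNCaP-AI vehicle 2, vehicle 3 and DOX 1, which had all 5 DU-145 markers. In DU-145 the 3 DOX points lie apart from the 3 vehicle points in every panel. In LNCaP-AI the triangles lie above the circles for SAT1, SMOX and SRM and below them for AMD1.

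Among the synthesis genes, ODC1 had the largest difference. ODC1 (chr2:10439968-10448327, reverse strand) stood at 387, 391 and 383 CPM in the vehicle DU-145 samples and at 1053, 878 and 980 CPM in the DOX samples. The lowest DOX sample was thus far above the highest vehicle sample, and the log2 difference was 1.33 ± 0.08 (SE, n = 3 per group). In LNCaP-AI cells ODC1 was at 560, 557 and 481 CPM with vehicle and 487, 474 and 479 CPM with DOX. These groups overlapped, with a log2 difference of -0.16 ± 0.10. DOX 2 and 3 against vehicle 1 differed by -0.23, and DOX 1 against vehicle 2 and 3 by -0.09, so the value stayed small on either side of the marker split.

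AMD1 (chr6:110874770-110898879, forward strand), whose product is the other decarboxylase of the pathway, was at 163, 134 and 169 CPM in vehicle DU-145 samples and 206, 199 and 214 CPM with DOX. The log2 difference was 0.41 ± 0.08, well under that of ODC1, and the groups did not overlap. LNCaP-AI samples held much more AMD1, 707, 553 and 527 CPM with vehicle and 540, 650 and 649 CPM with DOX. The groups overlapped and differed by 0.03 ± 0.16 on the log2 scale. Within the marker split the differences were -0.12 for DOX 2 and 3 against vehicle 1 and 0.00 for DOX 1 against vehicle 2 and 3. AMD1 was lower in the samples with DU-145 markers (527 to 553 CPM) than in the other LNCaP-AI samples (649 to 707 CPM).

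SRM (chr1:11054584-11060020, reverse strand), spermidine synthase, had the smallest DU-145 difference of the 10 genes. Its values were 100.5, 99.995 and 89.2 CPM with vehicle and 114, 110 and 111 CPM with DOX, a log2 difference of 0.21 ± 0.07. The log2 difference ran from 0.14 to 0.25 over the 6 samples left out in turn. In LNCaP-AI cells SRM was at 164, 179 and 206 CPM with vehicle and 203, 169 and 160 CPM with DOX, and the groups overlapped at a log2 difference of -0.05 ± 0.12. The values on the sides of the marker split were 0.01 for DOX 2 and 3 against vehicle 1 and 0.08 for DOX 1 against vehicle 2 and 3. SRM was higher in the samples with DU-145 markers (179 to 206 CPM) than in the other LNCaP-AI samples (160 to 169 CPM).

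SMS (chrX:21940709-21994837, forward strand), spermine synthase, moved the other way from the synthesis genes before it in DU-145. It was at 177, 172 and 170 CPM with vehicle and 144, 126 and 137 CPM with DOX, lower in every DOX sample by a log2 difference of -0.35 ± 0.07. In LNCaP-AI cells it was at 189, 242 and 237 CPM with vehicle and 298, 254 and 245 CPM with DOX, which was higher in every DOX sample by 0.24 ± 0.12. The gap between the highest vehicle and the lowest DOX sample there was narrow. DOX 2 and 3 against vehicle 1 differed by 0.40 and DOX 1 against vehicle 2 and 3 by 0.31, so the direction held on each side of the marker split.

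The antizyme genes went in opposite directions. OAZ1 (chr19:2269509-2273490, forward strand) was at 458, 452 and 440.5 CPM in vehicle DU-145 samples and 550, 540.0 and 569 CPM with DOX, a log2 difference of 0.30 ± 0.07. In LNCaP-AI cells it was at 679, 550 and 571 CPM with vehicle and 712, 743 and 785 CPM with DOX, without overlap and with nearly the same log2 difference, 0.31 ± 0.11. The value was 0.17 for DOX 2 and 3 against vehicle 1 and 0.35 for DOX 1 against vehicle 2 and 3. JSRP1 overlaps OAZ1 on the other strand, and whether the counting used strand is not given in the sources used here.

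OAZ2 (chr15:64687573-64703281, reverse strand) was at 95.9, 87.0 and 90.3 CPM in vehicle DU-145 samples and 64.8, 63.2 and 61.5 CPM with DOX, lower by 0.53 ± 0.07 on the log2 scale. In LNCaP-AI cells it was at 104, 72.7 and 87.3 CPM with vehicle and 71.9, 70.3 and 70.8 CPM with DOX. Here too the groups did not overlap, with a log2 difference of -0.32 ± 0.14, but the lowest vehicle sample was barely above the DOX samples. The split values were -0.56 for DOX 2 and 3 against vehicle 1 and -0.15 for DOX 1 against vehicle 2 and 3.

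AZIN1, on chromosome 8, was at 384, 318 and 365 CPM in vehicle DU-145 samples and 299, 302 and 290.1 CPM with DOX. The inhibitor of the antizymes was lower in every DOX sample, with a log2 difference of -0.26 ± 0.07. In LNCaP-AI cells it was at 270, 251 and 234 CPM with vehicle and 227, 238 and 246 CPM with DOX, which overlapped at -0.10 ± 0.09. The values on the 2 sides of the marker split were -0.16 and -0.10.

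Of the breakdown genes, SAT1 (chrX:23783173-23786210, forward strand), the acetyltransferase that starts polyamine export and back-conversion, was at 44.1, 51.1 and 52.9 CPM in vehicle DU-145 samples and 167, 152 and 171 CPM with DOX. The log2 difference of 1.73 ± 0.09 was the largest of the 10 genes in this line. In LNCaP-AI cells SAT1 was at 15.2, 122 and 135 CPM with vehicle and 145, 59.2 and 60.1 CPM with DOX. The 3 samples with DU-145 markers were the 3 highest, in both treatments, and vehicle 1 was by far the lowest. The difference over all 6 samples was -0.04 with an SE of 0.78, so it says little about direction. DOX 2 and 3 against vehicle 1 gave a 3.93-fold higher level, 1.97 on the log2 scale, which rests on 1 vehicle sample. DOX 1 against vehicle 2 and 3 gave 1.13-fold, or 0.17. In that comparison of the marker samples the DOX sample was above both vehicle samples. A second annotated gene on the same strand overlaps SAT1, and how reads shared by them were counted is not given in the sources used here.

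SMOX (chr20:4120980-4187747, forward strand), spermine oxidase, was at 62.8, 56.9 and 53.9 CPM in vehicle DU-145 samples and 137, 143 and 130.3 CPM with DOX, a log2 difference of 1.24 ± 0.07. In LNCaP-AI cells it was at 1.79, 23.1 and 28.3 CPM with vehicle and 21.3, 1.27 and 1.94 CPM with DOX. Every sample above 20 CPM was one with the DU-145 markers, and the others were below 2 CPM. Over all 6 samples the log2 difference was -1.12 ± 1.32. On the sides of the marker split it was -0.16 for DOX 2 and 3 against vehicle 1 and -0.27 for DOX 1 against vehicle 2 and 3. PAOX (chr10:133379261-133391694, forward strand), the peroxisomal oxidase of acetylated polyamines, was close to the lower limit of measurement in DU-145. Its counts were 12, 11 and 11 with vehicle and 7, 5 and 3 with DOX, so it passed the filter through the vehicle samples, and its log2 difference was -1.18 ± 0.43. In LNCaP-AI cells PAOX was at 3.45, 3.18 and 3.03 CPM with vehicle and 3.05, 2.94 and 3.47 CPM with DOX, overlapping at -0.04 ± 0.17. On the sides of the marker split it differed by -0.10 for DOX 2 and 3 against vehicle 1 and by -0.02 for DOX 1 against vehicle 2 and 3.

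**Figure D2:**
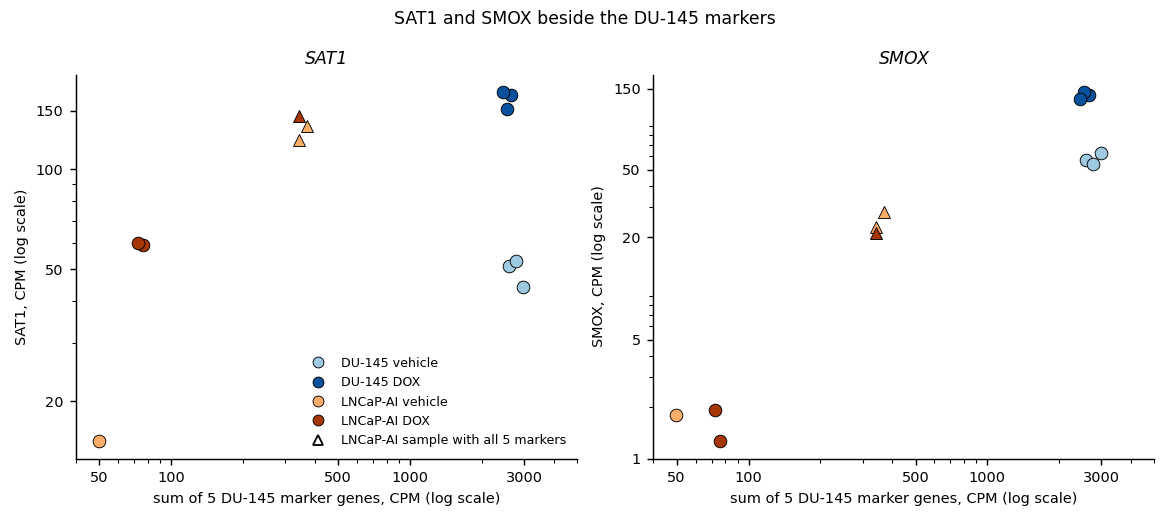
SAT1 (left) and SMOX (right) CPM on a log scale against the summed CPM of the 5 DU-145 markers, also on a log scale, with a point per sample. The LNCaP-AI samples with all 5 markers (triangles, 342 to 370 CPM) lie at 122 to 145 CPM for SAT1 and 21.3 to 28.3 CPM for SMOX, above the other LNCaP-AI samples, and in DU-145 the DOX points lie above the vehicle points at like marker sums.

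In LNCaP-AI none of the 10 passed an adjusted p of 0.05 by edgeR's quasi-likelihood test, 1 was under an unadjusted p of 0.05, and DESeq2 also called none, with 2 under an unadjusted p of 0.05. Of the 16030 genes tested in this line 12.7% passed, 7.22% of those tested being higher and 5.52% lower with DOX, and nothing is read from the count of the 10. The 3 genes that separated, SMS, OAZ1 and OAZ2, compare with 37.9% of all genes tested. The median absolute log2 difference was 0.13 over the 10 genes and 0.32 over all genes. Leaving out the 3 samples with DU-145 markers left 1 vehicle and 2 DOX samples, where the lone vehicle sample is assumed to vary like the others. In that fit SAT1 was higher by 2.00 ± 0.07, SMS by 0.43 ± 0.05 and OAZ1 by 0.20 ± 0.05 on the log2 scale. ODC1 was at -0.20 ± 0.05, AZIN1 at -0.13 ± 0.05 and OAZ2 at -0.53 ± 0.06. SMOX stood at -0.13 ± 0.33.

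The difference of the DOX effect between the lines, LNCaP-AI minus DU-145, was widest for SMOX, SAT1 and ODC1. It was -2.31 ± 1.34 for SMOX, -1.74 ± 0.86 for SAT1, -1.45 ± 0.13 for ODC1 and 0.63 ± 0.15 for SMS on the log2 scale. For OAZ1 it was 0.05 ± 0.12. An interaction at an adjusted p of 0.05 was met by 9.18% of the 16800 genes tested, and by ODC1 and SMS among the 10, a count from which nothing is read. Without the samples with DU-145 markers the difference was 0.31 ± 0.16 for SAT1, -1.50 ± 0.13 for ODC1, 0.81 ± 0.12 for SMS and -1.34 ± 0.32 for SMOX. The SAT1 difference thus changed sign with those samples, and the ODC1 and SMS differences kept theirs.

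**Figure D3:**
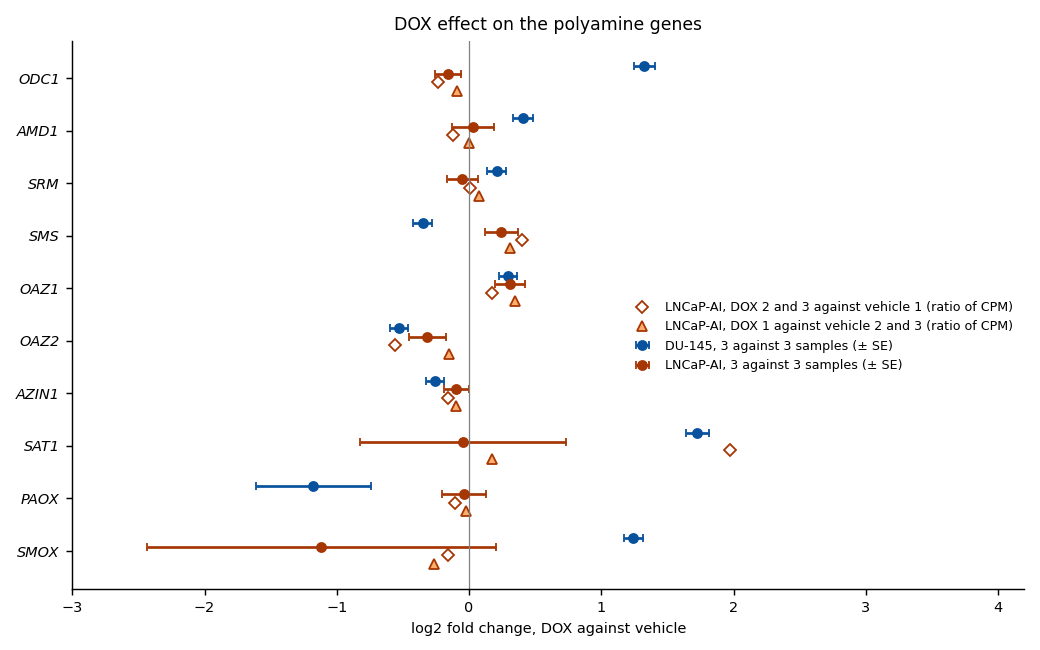
Log2 difference between DOX and vehicle for the 10 genes in DU-145 (blue) and LNCaP-AI (red), with SE bars from edgeR and 3 samples per group. Open diamonds give the ratio of mean CPM of DOX 2 and 3 against vehicle 1, and triangles that of DOX 1 against vehicle 2 and 3. ODC1 and SMOX lie at 1.33 and 1.24 in DU-145 and at or below 0 in every LNCaP-AI value, while SAT1 lies at 1.73 in DU-145 and between -0.04 and 1.97 in LNCaP-AI.

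The balance of these mRNAs within a sample was described per length of transcript. The ratio of ODC1 to the sum of OAZ1 and OAZ2 was 0.348, 0.361 and 0.360 in vehicle DU-145 samples and 0.830, 0.705 and 0.751 with DOX. In LNCaP-AI samples it was 0.350, 0.436 and 0.358 with vehicle and 0.299, 0.280 and 0.269 with DOX. The ratio was thus higher with DOX in every DU-145 sample and lower with DOX in every LNCaP-AI sample, without overlap in either line. The ratio of OAZ1 to OAZ2 went the same way in both lines. It ran from 8.04 to 8.74 with vehicle and from 14.3 to 15.6 with DOX in DU-145, and from 11.0 to 12.7 with vehicle and from 16.7 to 18.7 with DOX in LNCaP-AI. The summed level of the 3 breakdown genes in LNCaP-AI was 17.2, 129 and 143 CPM per kb with vehicle and 150, 58.6 and 60.0 CPM per kb with DOX, so it followed the marker split. The summed level of the 4 synthesis genes stayed between 651 and 690 CPM per kb in all 6 samples. Within that sum AMD1 was lower and SRM higher in every sample with DU-145 markers than in the others.

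Per length of the main transcript and by group mean, OAZ1 was the most abundant of the 10 genes and PAOX the least abundant in all 4 groups. In vehicle DU-145 cells OAZ1 stood at 392 ± 7.65 CPM per kb (SD, n = 3), followed by ODC1 at 156 ± 1.64 and SMS at 102 ± 2.32. AZIN1 at 84.7 ± 8.11 and SRM at 76.6 ± 5.05 did not differ beyond their spread. SAT1 at 47.1 ± 4.45, OAZ2 at 47.1 ± 2.33 and AMD1 at 45.5 ± 5.49 overlapped with each other too, above SMOX at 26.7 ± 2.09 and PAOX at 0.535 ± 0.039. In DU-145 cells with DOX the order was OAZ1 at 482 ± 12.7, ODC1 at 392 ± 35.6, SAT1 at 156 ± 9.47, SRM at 88.6 ± 1.49, SMS at 79.7 ± 5.31 and AZIN1 at 70.8 ± 1.47. SMOX at 63.2 ± 2.98 and AMD1 at 60.3 ± 2.24 overlapped, and OAZ2 at 32.7 ± 0.843 stood above PAOX at 0.235 ± 0.105. SAT1 thus had rank 6 of the 10 genes with vehicle and rank 3 with DOX. With the union of all annotated exons as the length, ODC1 at 293 CPM per kb stood above OAZ1 at 161 in the DOX group, so the order of these 2 genes there depends on the length used. Other orders changed with it too. In vehicle DU-145 cells SMOX at 19.6 then stood above AMD1 at 15.3 and OAZ2 at 11.9. In both LNCaP-AI groups AMD1 had rank 3 by the main transcript and rank 5 by the exon union.

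In LNCaP-AI cells with vehicle OAZ1 was at 523 ± 60.3 CPM per kb, ODC1 at 215 ± 18.01, AMD1 at 174 ± 28.5, SRM at 145 ± 17.1 and SMS at 131 ± 17.2. From ODC1 down to SAT1, at 86.4 ± 62.6, each gene overlapped with the next. AZIN1 at 59.9 ± 4.32 and OAZ2 at 45.5 ± 8.09 did not overlap with each other, and SMOX was at 8.19 ± 6.49 and PAOX at 1.76 ± 0.116. With DOX the levels were 651 ± 32.0 for OAZ1, 194 ± 2.60 for ODC1, 179 ± 18.5 for AMD1, 156 ± 16.6 for SMS, 141 ± 17.9 for SRM, 83.9 ± 46.9 for SAT1 and 56.4 ± 2.29 for AZIN1. From AMD1 down to AZIN1 each overlapped with the next. OAZ2 was at 36.7 ± 0.433, SMOX at 3.78 ± 5.27 and PAOX at 1.72 ± 0.153. SMOX overlapped with PAOX in both groups. The lowest SMOX sample was at 0.828 with vehicle and 0.586 with DOX, below the lowest PAOX samples at 1.66 and 1.61.

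**Figure D4:**
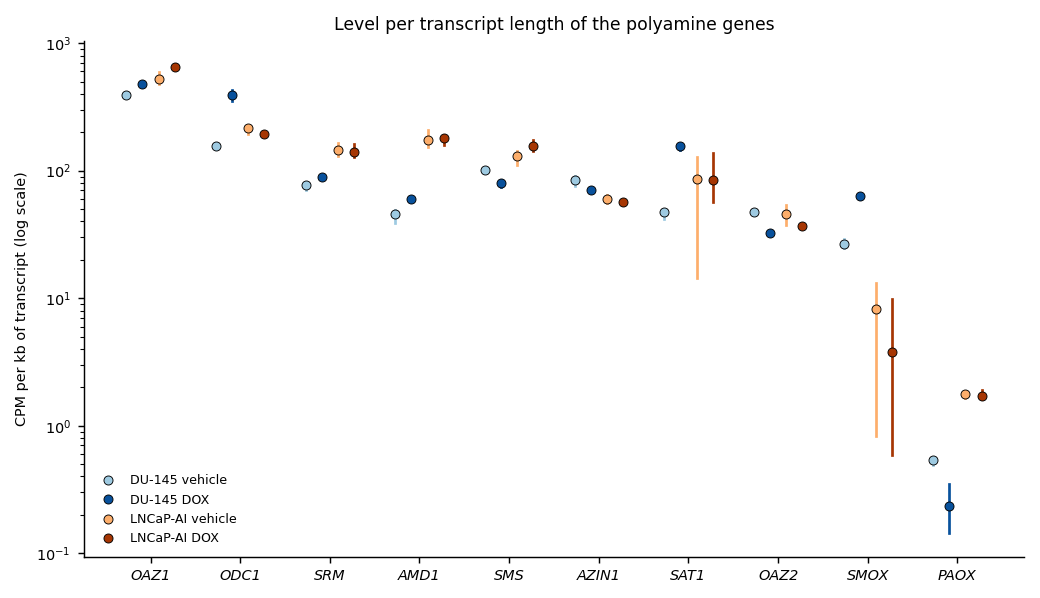
Level per length of the main transcript (CPM per kb, log scale) of the 10 genes in the 4 groups, with points at the mean and lines from the lowest to the highest of 3 samples. By mean OAZ1 lies highest and PAOX lowest in every group, and in LNCaP-AI the lines of SMOX reach below those of PAOX. SMOX has a mean of 26.7 in vehicle DU-145 and 8.19 in vehicle LNCaP-AI. The longest lines are those of SAT1 and SMOX in LNCaP-AI.

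The difference between the 2 lines without DOX was not used to choose the genes and was tested, although the vehicle values themselves entered the choice. TMM scaling was redone for this fit on the genes of the 6 vehicle samples that passed the filter. Its differences can thus depart from ratios of the CPM given above, which were scaled over all 12 samples. Vehicle LNCaP-AI cells held more ODC1, AMD1, SRM, OAZ1 and PAOX mRNA and less AZIN1 than vehicle DU-145 cells. By edgeR's quasi-likelihood test AMD1 was 1.82 ± 0.15 higher on the log2 scale (adjusted p = 5.0e-05), SRM 0.80 ± 0.11 higher (adjusted p = 6.0e-04) and PAOX 1.60 ± 0.22 higher (adjusted p = 5.7e-04). ODC1 was 0.34 ± 0.10 higher (adjusted p = 0.0199) and OAZ1 0.30 ± 0.11 higher (adjusted p = 0.0392), while AZIN1 was lower by a log2 difference of -0.61 ± 0.10 (adjusted p = 0.0013). These 6 of 10 genes compare with 65.1% of the 15628 genes tested, and the 5 higher and 1 lower with 35.0% higher and 30.2% lower among all genes. SMS (log2 difference 0.25, adjusted p = 0.094), OAZ2 (-0.17, adjusted p = 0.292), SAT1 (0.75, adjusted p = 0.343) and SMOX (-1.82, adjusted p = 0.0685) did not pass.

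The number of genes past the threshold depended on which samples were kept. Without LNCaP-AI vehicle 1 all 10 genes passed, and without DU-145 vehicle 1 or vehicle 3 only AMD1, SRM, AZIN1 and PAOX did. With a sample left out 7762 to 9938 of all genes passed, of 13813 to 15204 tested. Without LNCaP-AI vehicle 1, 10209 of 13896 genes were under an unadjusted p of 0.05 by edgeR's test. OAZ1 also missed the threshold of edgeR's test without DU-145 vehicle 2 (adjusted p = 0.0670) and with DESeq2 size factors (adjusted p = 0.0522). SMS passed edgeR's test with upper-quartile scaling (adjusted p = 0.0338), with no count filter (adjusted p = 0.0250) and with all 12 samples (adjusted p = 0.0363). SMOX passed it with no count filter (adjusted p = 0.0287). Without the vehicle samples that carried DU-145 markers, LNCaP-AI was left with vehicle 1, assumed to vary like the DU-145 samples. SAT1 was then lower than in DU-145, by a log2 difference of -1.73 ± 0.16 (adjusted p = 3.4e-07), and SMOX stood at -5.04 ± 0.19 (adjusted p = 6.2e-11). AMD1, SRM, PAOX, ODC1, OAZ1 and AZIN1 stayed past the threshold in their directions.

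The genes whose log2 CPM, centred on the mean of each line, ran most like SAT1 over the 12 samples were SERPINB5 (r = 0.985), DDIT4 (r = 0.979), CD55 (r = 0.977), TRIB1 (r = 0.976) and MAP3K9 (r = 0.974), among 12910 genes tested in both lines. The values within LNCaP-AI were 0.979 to 0.991, where the samples share the marker split, and within DU-145 0.973 to 0.992, where they share the treatment. For ODC1 they were EPG5 (r = 0.985), CITED2 (r = 0.980), GOT1 (r = 0.978), MREG (r = 0.973) and BUD31 (r = 0.972). Their values were 0.986 to 0.993 within DU-145 and 0.607 to 0.713 within LNCaP-AI. The correlations are Pearson's and are given as descriptions.

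The genes around the pathway were taken as 5 lists of 35 genes in all, which feed it with ornithine and S-adenosylmethionine, carry polyamines across membranes, use spermidine to modify the translation factor eIF5A, or are paralogs of the 10 genes. In DU-145 cells 28 were tested, 9 rose, 5 fell and 14 did not pass, against 51.5% of all genes passing. The median log2 difference was 0.07 over these genes and 0.00 over all genes. Transport genes included the clearest rises. ATP13A2, a lysosomal polyamine exporter, was at 26.4, 25.7 and 22.7 CPM with vehicle and 45.7, 49.6 and 43.7 CPM with DOX. It rose by 0.90 ± 0.09 on the log2 scale (edgeR adjusted p = 8.1e-08). SLC3A2, the heavy chain shared by several amino acid transporters, was at 143, 133 and 142 CPM with vehicle and 209, 234 and 209 CPM with DOX, a rise of 0.64 ± 0.07 (edgeR adjusted p = 2.5e-07). Of the 6 transport genes tested 2 rose and 1 fell, SLC22A3 with a log2 difference of -0.69.

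Of the genes that make or use ornithine, OAT, the ornithine aminotransferase, rose in DU-145 by 0.54 ± 0.07 (edgeR adjusted p = 2.7e-06), from 126 to 132 CPM with vehicle to 177 to 199 CPM with DOX. ARG2, the mitochondrial arginase that makes ornithine from arginine, rose by 0.86 ± 0.30 (edgeR adjusted p = 0.0219), from 1.06, 1.81 and 1.15 CPM to 3.01, 2.25 and 2.01 CPM. ALDH18A1, which makes the precursor of proline and ornithine from glutamate, fell, with a log2 difference of -0.24 ± 0.07 (edgeR adjusted p = 0.0071). In the methionine cycle list 2 of 10 tested genes rose and 2 fell. The latter were MTR, methionine synthase, at -0.26 ± 0.07 (edgeR adjusted p = 0.0043) and MAT2B, the regulatory subunit of S-adenosylmethionine synthetase, at -0.25 ± 0.07 (edgeR adjusted p = 0.0079). In the eIF5A list DOHH, the hydroxylase that completes hypusine, rose by 0.63 ± 0.11 (edgeR adjusted p = 7.3e-05) and EIF5A2 fell, with a log2 difference of -0.77 ± 0.15 (edgeR adjusted p = 2.3e-04). Of the paralogs OAZ3 rose by 0.60 ± 0.23 (edgeR adjusted p = 0.0371), whereas SAT2 at 0.13 (adjusted p = 0.291) and AZIN2 at -0.47 (adjusted p = 0.196) did not pass. The calls of ARG2, SLC22A3 and OAZ3 in DU-145 were not made by DESeq2 (adjusted p = 0.109, 0.0822 and 0.153). In edgeR ARG2 missed the threshold without vehicle 1, vehicle 3 or DOX 1, SLC22A3 without vehicle 3 or DOX 2, OAZ3 without vehicle 1, DOX 2 or DOX 3, and MAT2B without DOX 2. These 4, MTR and ALDH18A1 also missed it with the spread shared over all 12 samples.

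In LNCaP-AI 31 of the 35 linked genes entered the test, of which 4 rose, 2 fell and 25 did not pass, against 12.7% of all genes passing. The rises include ARG1, which entered the test through its DOX samples alone. The largest rises were in ARG2 and SLC22A3. ARG2 was at 12.2, 8.84 and 6.94 CPM with vehicle and 36.3, 45.3 and 47.6 CPM with DOX, a rise of 2.20 ± 0.25 on the log2 scale (edgeR adjusted p = 0.0123). SLC22A3, an organic cation transporter, was at 23.0, 13.6 and 12.4 CPM with vehicle and 46.8, 62.5 and 64.0 CPM with DOX, a rise of 1.81 ± 0.29 (edgeR adjusted p = 0.0180). Both rises were present on each side of the marker split, where ARG2 differed by 1.93 for DOX 2 and 3 against vehicle 1 and 2.20 for DOX 1 against vehicle 2 and 3, and SLC22A3 by 1.46 and 1.85.

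SAT2, a paralog of SAT1, was at 25.5, 22.3 and 26.1 CPM with vehicle and 35.8, 35.6 and 33.2 CPM with DOX in LNCaP-AI. It rose by 0.49 ± 0.09 (edgeR adjusted p = 0.0252), and the values on the 2 sides of the marker split were 0.43 and 0.56. With no count filter SAT2 missed the threshold in edgeR (adjusted p = 0.0687). ARG1, the cytosolic arginase, had only 6, 3 and 7 counts with vehicle and 16, 10 and 14 with DOX, so it entered the test through the DOX samples alone. Its log2 difference was 1.52 ± 0.35 (edgeR adjusted p = 0.0422), with 1.32 and 1.68 on the sides of the marker split, and DESeq2 did not call it (adjusted p = 0.112). In edgeR ARG1 missed the threshold with no count filter (adjusted p = 0.0761) and with all 12 samples (adjusted p = 0.0556). The same held without vehicle 1, vehicle 2 or vehicle 3. EIF5A2 fell in this line as in DU-145, from 22.2, 17.0 and 16.4 CPM with vehicle to 9.04, 7.55 and 7.74 CPM with DOX, a log2 difference of -1.20 ± 0.17 (edgeR adjusted p = 0.0158), and the split values were -1.54 and -0.88. MAT2A, the catalytic subunit of S-adenosylmethionine synthetase, fell with a log2 difference of -0.61 ± 0.14 (edgeR adjusted p = 0.0394), from 195, 250 and 224 CPM to 171, 137 and 133 CPM, with split values of -0.53 and -0.47. OAZ3 at 0.41 (adjusted p = 0.186) and AZIN2 at 0.10 (adjusted p = 0.814) did not pass. Their split values were 0.12 and 0.60 for OAZ3 and 0.62 and -0.01 for AZIN2. All 6 calls were lost when DOX 2 or DOX 3 was left out, when 1 gene of all those tested passed. SAT2, ARG1 and MAT2A missed the threshold without vehicle 2 or without vehicle 3. In these fits 3 linked genes passed, beside 1096 and 994 of all genes. Without the marker samples 1 vehicle sample was left, and each of the 6 genes kept its direction. The log2 differences were then 1.96 for ARG2, 1.49 for SLC22A3, 0.46 for SAT2, 1.33 for ARG1, -1.51 for EIF5A2 and -0.50 for MAT2A.

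**Figure D5:**
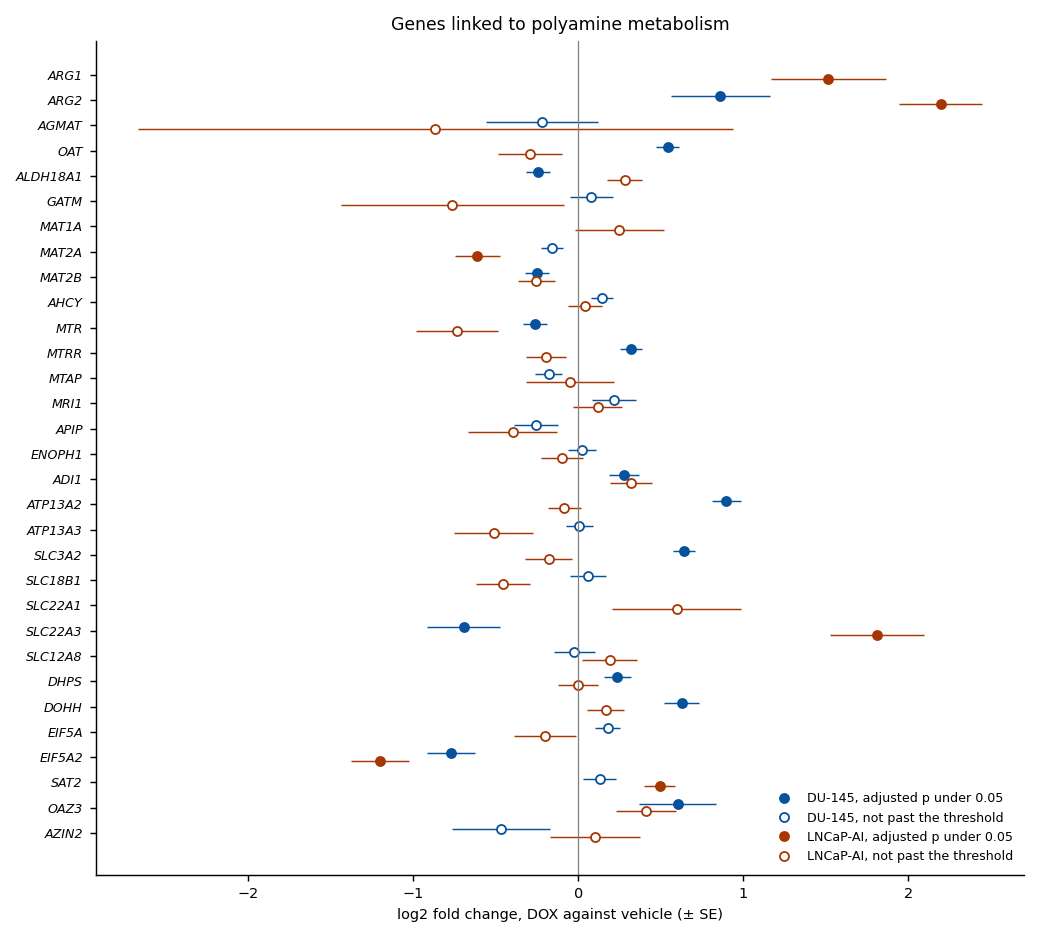
Log2 difference between DOX and vehicle, with SE bars, for the linked genes tested in DU-145 (blue) or LNCaP-AI (red), in the order ornithine, methionine cycle, transport, eIF5A and paralogs. Filled points passed an edgeR adjusted p of 0.05. ATP13A2 and SLC3A2 lie at 0.90 and 0.64 in DU-145, ARG2 and SLC22A3 at 2.20 and 1.81 in LNCaP-AI, and EIF5A2 lies to the left in both lines.

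Without DOX, 21 of the 29 linked genes tested differed between the lines, 12 higher and 9 lower in vehicle LNCaP-AI cells, beside 65.1% of all genes. ARG2 was higher by 2.68 ± 0.33 (edgeR adjusted p = 3.5e-04), SLC22A3 by 1.90 ± 0.29 (edgeR adjusted p = 9.3e-04) and OAZ3 by 1.65 ± 0.26 (edgeR adjusted p = 0.0011) on the log2 scale. MAT2B was lower, with a log2 difference of -1.01 ± 0.11 (edgeR adjusted p = 1.8e-04), as was OAT, at -0.74 ± 0.12 (edgeR adjusted p = 0.0013).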

How the data were processed

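Total RNA from triplicate cultures was made into TruSeq Stranded mRNA libraries. According to the submitters' processing notes, CASAVA 1.8.2, STAR 2.7.0, DESeq2 1.24.0 and GRCh38.p7 were used, and the authors deposited raw read counts per gene, without normalization. The tool that counted reads and its strand setting are not given in the sources used here. Samples were grouped by line and treatment from the labels, 12 samples in 4 groups of 3. Total counts were 10423437 to 13544153 per sample in DU-145 and 16569613 to 26961777 in LNCaP-AI, so 3 counts, taken as the floor for counting error alone, correspond to well under 1 CPM. Every pair of replicates differed by more than counting noise (chi-square over degrees of freedom of 2.38 or more).

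Genes that reached 10 counts in 3 or more samples were fitted with edgeR 4.0.16 in R 4.3.3 (TMM, glmQLFit, glmQLFTest) within each line, over all 12 samples for the interaction and over the 6 vehicle samples for the lines. P-values were Benjamini-Hochberg adjusted over all genes tested, with a threshold of 0.05. The steps were tested on simulated data. The genes, lists and tests were chosen with earlier results of these data known. Named genes are the 10 genes, MUC1, in each line the 4 linked genes per direction with the smallest adjusted p, SAT2, OAZ3 and AZIN2, and the 5 genes most like SAT1 and ODC1. SLC22A3 and ARG2 in DU-145 and the linked genes named between the lines were picked after their values were seen. Level per length used GENCODE release 44 canonical transcripts, and that release may differ from the authors' annotation. AMD1, OAZ1, SMS and SRM have processed pseudogenes in it, and how reads they share were counted is not given. Alternatives were DESeq2 1.42.0, other scalings, other count filters, a replicate block, all 12 samples, leaving out each sample and, chosen after seeing the data, leaving out the LNCaP-AI samples with DU-145 markers. Some items are not reported here.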

Additional observations from a re-analysis of the deposited data

Results flagged for a closer look

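The DOX effect differed between the lines for 5 linked genes by the interaction test over all 12 samples (edgeR's quasi-likelihood test). LNCaP-AI minus DU-145, on the log2 scale, the difference was 2.54 ± 0.36 for SLC22A3 (adjusted p = 0.0027), which fell in DU-145 and rose in LNCaP-AI. It was -0.95 ± 0.13 for ATP13A2 (adjusted p = 0.0028), -0.79 ± 0.17 for SLC3A2 (adjusted p = 0.0187) and -0.80 ± 0.22 for OAT (adjusted p = 0.0445), each of which rose in DU-145 and did not pass in LNCaP-AI. ALDH18A1, which fell in DU-145 and stood at 0.28 in LNCaP-AI, differed by 0.56 ± 0.12 (adjusted p = 0.0190). These 5 of 31 linked genes compare with 9.18% of all genes tested. Without the LNCaP-AI samples with DU-145 markers all 5 remained past the threshold, at 2.21 for SLC22A3, -1.02 for ATP13A2, -0.67 for SLC3A2, -0.74 for OAT and 0.44 for ALDH18A1. With a sample left out 2 to 10 linked genes passed, the lowest number without LNCaP-AI DOX 2 and the highest without LNCaP-AI DOX 1. Of all genes 766 and 3471 passed in these 2 fits. OAT missed the threshold in 10 of the 12 fits with a sample left out, with edgeR adjusted p from 0.0705 to 0.110, and passed only without LNCaP-AI vehicle 1 or without LNCaP-AI DOX 1. ALDH18A1 missed it without DU-145 DOX 2, DU-145 DOX 3 or LNCaP-AI DOX 2, and with no count filter (edgeR adjusted p = 0.0629). SLC3A2 missed it without LNCaP-AI DOX 2 or DOX 3, and SLC22A3 and ATP13A2 passed in all 12.

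For SMS the difference was 0.63, given as a description because the gene was chosen by these values. The DOX samples all lay below the vehicle samples in DU-145 and all above them in LNCaP-AI.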

How the results depend on the processing

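In DU-145 each of the 10 genes kept its direction under every alternative that could be run. With the spread shared over all 12 samples 4083 of all genes, 7 of the 10 (all but SAT1, SMOX and SRM) and 6 linked genes passed. PAOX was not called in DU-145 by DESeq2, with no filter or with a filter of 1 CPM in 3 samples. With a sample left out PAOX was called only without DOX 1, and SRM was not called without vehicle 1, vehicle 3 or DOX 1. In LNCaP-AI the number of genes passing was 3337 with DESeq2, 3933 with all 12 samples, 7554 without the samples with DU-145 markers and between 1 and 3538 with a sample left out, the 1 being without DOX 2 or without DOX 3. Of the 10 genes, 1 passed with all 12 samples, 6 without the marker samples and between 0 and 1 with a sample left out, and of the linked genes 18 and between 0 and 7 in the last 2 settings. For the interaction 884 genes passed with no filter, 3635 without the marker samples and 737 to 3471 with a sample left out. The 10 genes then gave 1, 4 and 1 to 4, and the linked genes 13 without the marker samples and 2 to 10 with a sample left out. Between the vehicle samples 4 to 10 of the 10 genes and 7762 to 9938 of all genes passed with a sample left out. SAT1 turned to -1.73 and OAZ2 to 0.16 without the marker samples, and OAZ2 ran from -0.23 to 0.020 with a sample left out, turning without LNCaP-AI vehicle 2. The cause was not tested.

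Replicate numbers were checked for pairing by the correlation of same-numbered samples' deviations, which was 0.126, -0.0894 and 0.0744 in DU-145 and averaged -0.865 in LNCaP-AI. In DU-145 same-numbered samples thus shared little beyond a number. In LNCaP-AI the marker split sets same-numbered samples against each other, so the check cannot tell whether they were paired. With a replicate block 6924 genes, 10 of the 10 and 15 linked genes passed in DU-145. In LNCaP-AI 0 genes passed (2909 at an unadjusted p under 0.05), 0 of the 10 and 0 linked genes. For the interaction 52 genes, 1 of the 10 and 0 linked genes passed, and between vehicle samples 9378 genes and 5 of the 10.

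At these depths PAOX in DU-145 and ARG1 are limited by counts of 16 or fewer.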
